A study of Homo sapiens with 2 samples.

Results

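The RNAs that act in the cleavage of pre-ribosomal RNA, and copies of them elsewhere in the genome, held 18 of the 16095 distinct peak positions of an iCLIP experiment on DDX18, or 0.112% (exact 95% binomial interval 0.0663 to 0.177). The members were chosen by name, without a cut on peak height, but with earlier results of these data known. They are the 9 positions called in TMEM107, HSPA8, RCC1, SNHG3 or RMRP, together with the 16 positions that the annotation places in a repeat named U3, U8, U13, U14 or U17, and 7 positions met both criteria. No position carried the repeat name U8, so U8 is represented by its host gene TMEM107. Because U14 also lies in introns of RPS13, 2 positions in that gene entered through the repeat name. A position called in several genes was counted once, which reduced 22 entries to 18 positions.

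iCLIP maps where a protein touches RNA, by crosslinking with ultraviolet light, immunoprecipitation and sequencing of the attached fragments. The cells were H9, a widely used line of human embryonic stem cells. They expressed DDX18, a nucleolar helicase of the DEAD-box family, with a 3XFlag tag, and were kept in normal culture on inactivated mouse embryonic fibroblasts before irradiation with 160 mJ/cm2 at 254 nm. The labels give 2 samples of this one group, with nothing on whether they were separate cultures, and the deposited list has 1 value per peak for both. No error between replicates and no depth per sample can therefore be given for any value here, and no untagged or input sample was used, so the height of a peak cannot be told apart from the abundance of its RNA. Of 7 stem cell markers, 5 had a called peak (LIN28A, L1TD1, DNMT3B, CRIPTO and NANOG) and POU5F1 and SOX2 had none (exact 95% binomial interval 29.0 to 96.3%). Of 5 markers of the fibroblast feeder layer, COL1A1, COL1A2 and THY1 had a peak and COL3A1 and VIM had none (14.7 to 94.7%). Both intervals include the 31.0% of all protein-coding genes with a called peak, and the part of mouse RNA in any peak was not tested.

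Ribosomal RNA is made as one long precursor that is cut into the mature small-subunit and large-subunit RNAs. Most small nucleolar RNAs (snoRNAs) guide chemical modification of rRNA, but a few are needed for the cuts. U3, U14 and U17 act in the early cuts that release the small-subunit rRNA. U8 acts in maturation of the large-subunit rRNAs, and RMRP is the RNA of RNase MRP, a nuclease that cuts between the small-subunit and large-subunit parts. U13 pairs with small-subunit rRNA and is known for guiding its acetylation. U14 and U17 are cut out of introns of host genes, whereas RMRP is transcribed from a gene of its own.

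The 18 positions fell into 2 sets with no overlap in height. The height of a peak is the authors' own whole-number signal, for which no scaling is stated. The 11 positions of U8, RMRP, U14 and U17 had heights from 243 to 3529 with a median of 1107. The 7 copies of U3 and U13 had heights from 3 to 27 with a median of 5. The list as a whole had a median of 8 and a 99th percentile of 185.1. At or above that percentile stood 11 of the 18 positions, all of them in U8, RMRP, U14 or U17, beside 1% of the list. The 18 positions together had a summed height of 12634, or 1.93% of the height of the list, and 4.85% of what remained outside named copies of rRNA. U8 contributed 0.540% of the list's height, RMRP 0.280%, U14 0.571% and U17 0.528%.

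**Figure D1:**
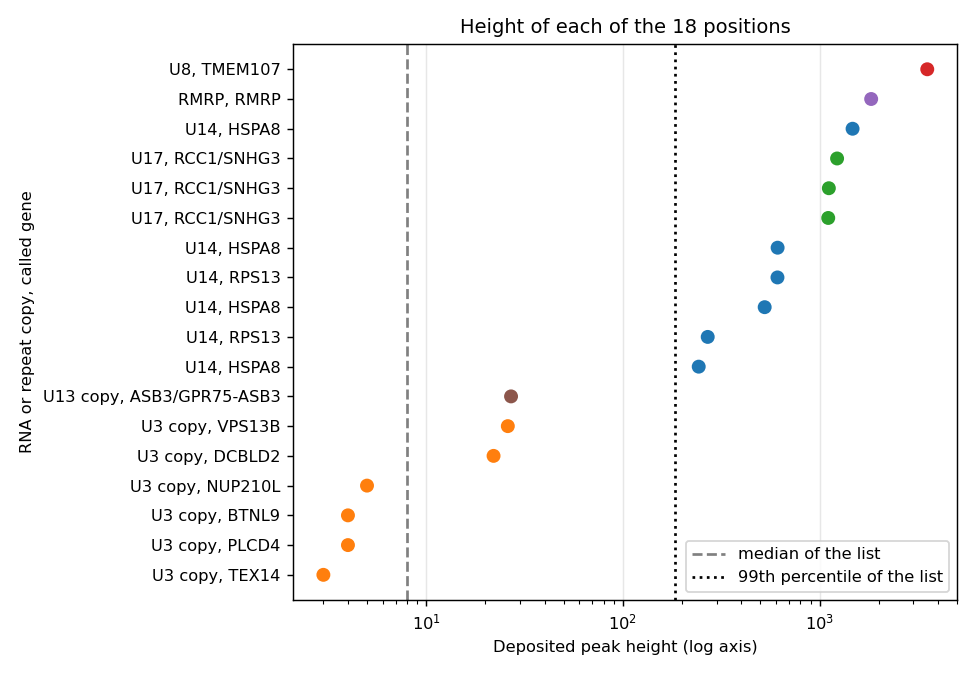
Deposited height (log axis) of each of the 18 positions, 1 point per position, coloured by RNA and labelled with the RNA or repeat copy and the called gene. The 11 positions of U8, RMRP, U14 and U17 lie to the right of the 99th percentile of the list (dotted, 185.1), and the 7 copies of U3 and U13 lie to the left of it, 4 of them below the median of 8 (dashed).

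U8 had the highest peak of the members. It stood at position 8076797 of chromosome 17 on the minus strand (hg19, 1 nt wide) with a height of 3529, rank 18 of the list. The 17 higher positions were all in named copies of rRNA, so no position outside those copies was higher. The next positions in rank were a copy of rRNA in ANKRD30BL (3958) above it and an intronic peak of VAV2 (3427) below it. The annotation gives the position as the 3' UTR of TMEM107, in exon 5 of 5. TMEM107 encodes a membrane protein of the ciliary transition zone. The gene table (GRCh38.p14) places SNORD118, the gene of U8, from 2792 to 2928 nt downstream of the start of TMEM107, and the peak lay 2917 nt downstream of its annotated start site in hg19. This window holds the peak if both start sites are the same base, and no other peak was called in TMEM107. A read of the mRNA's own 3' UTR at this place cannot be told apart from a read of U8.

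RMRP had 1 peak of height 1830, at position 35657775 of chromosome 9 on the minus strand, rank 25. It lay 240 nt downstream of the RMRP start site, that is at nt 241 of the 270 nt that the gene table gives for RMRP, or 0.891 of the way along the RNA and 29 nt from its 3' end. The label at this place is promoter-TSS, for a transcript of the neighbouring CCDC107, although the peak was called in RMRP and lies inside it. RMRP is the only member whose own start site the annotation used, and so the only one given a place along its RNA. The distance is on hg19 and the length on GRCh38.p14, so this place holds only if both start sites are the same base. Its neighbours in rank were a copy of rRNA in PHKB (1955) and a start-region peak of TSC2 (1818). RPPH1, the related RNA of RNase P, had no called peak. This is no measure of that RNA, since its gene model may not have been used in the calling.

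U17, a box H/ACA snoRNA present as SNORA73A (207 nt) and SNORA73B (205 nt), had 3 peaks of nearly equal height on the plus strand of chromosome 1. One stood at 28834060 to 28834061 with a height of 1107, and the others at 28835188 and 28835253 with heights of 1228 and 1115. Each was listed both in SNHG3, the non-coding host transcript, and in RCC1, the gene of a chromatin-bound exchange factor that overlaps it. The first peak and the last were 1192.5 nt apart, between the middles of the peaks, and the 2 copies begin 1193 nt apart and end 1191 nt apart in the gene table. If the copies are spaced alike in hg19, these 2 peaks met the same point of both copies to within 1.5 nt. The peak of height 1228 lay 65 nt upstream of the last one, in the second copy, and no peak was listed at the matching point of the first copy. In rank the 3 peaks followed each other directly, between a 3' UTR peak listed in MTFP1 and SEC14L2 (1269) and a copy of rRNA in RYR2 (1107).

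U14, a box C/D snoRNA with 5 gene copies on chromosome 11, had 6 peaks on the minus strand with heights from 243 to 1472. In HSPA8, the gene of a constitutive heat shock chaperone, the peaks stood at 122930073 in intron 5 of 7 (height 612), at 122929635 to 122929636 in intron 6 of 7 (526), and at 122928848 (243) and 122928802 (1472) in intron 8 of 8. The intron numbers follow 2 transcripts, of which the one with 8 introns names the last pair. In order along the gene these 3 sites match SNORD14C, SNORD14D and SNORD14E. In RPS13, a small-subunit ribosomal protein gene, a peak at 17097350 in intron 3 of 5 had a height of 270 and one at 17096213 in intron 5 of 5 had a height of 611, and these match SNORD14B and SNORD14A in the same way. The highest U14 peak was 6.06 times the lowest, and both lay in the same intron of HSPA8, 46 nt apart. The highest ranked between a copy of rRNA in DIP2C (1554) and a peak of MIR663AHG (1459). The other 5 ranked among other box C/D snoRNAs: SNORD45A (618) and SNORD10 (607) stood around the pair of 612 and 611, SNORD101 (569) and SNORD2 (515) around 526, SNORD102 (276) and SNORD32A (270) around 270, and SNORD47 (248) and SNORD83A (243) around 243.

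The U14 peaks met similar, but not identical, points of the copies. From SNORD14D to the higher peak of SNORD14E the peaks were 833.5 nt apart, 1.5 nt more than the spacing of the 3' ends of these copies (832 nt). From SNORD14C to SNORD14D they were 437.5 nt apart, 11.5 nt more than the 3' ends (426 nt), and from SNORD14B to SNORD14A 1137 nt, 12 nt more (1125 nt). These are comparisons of distances only, since the peaks are on hg19 and the gene table is on GRCh38.p14. The copies are alike in sequence, and how reads that fit several copies were placed is not given in the sources used here. The heights of single U14 or U17 copies are therefore uncertain. Whether peaks at matching points of 2 copies come from separate reads is also unknown.

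**Figure D2:**
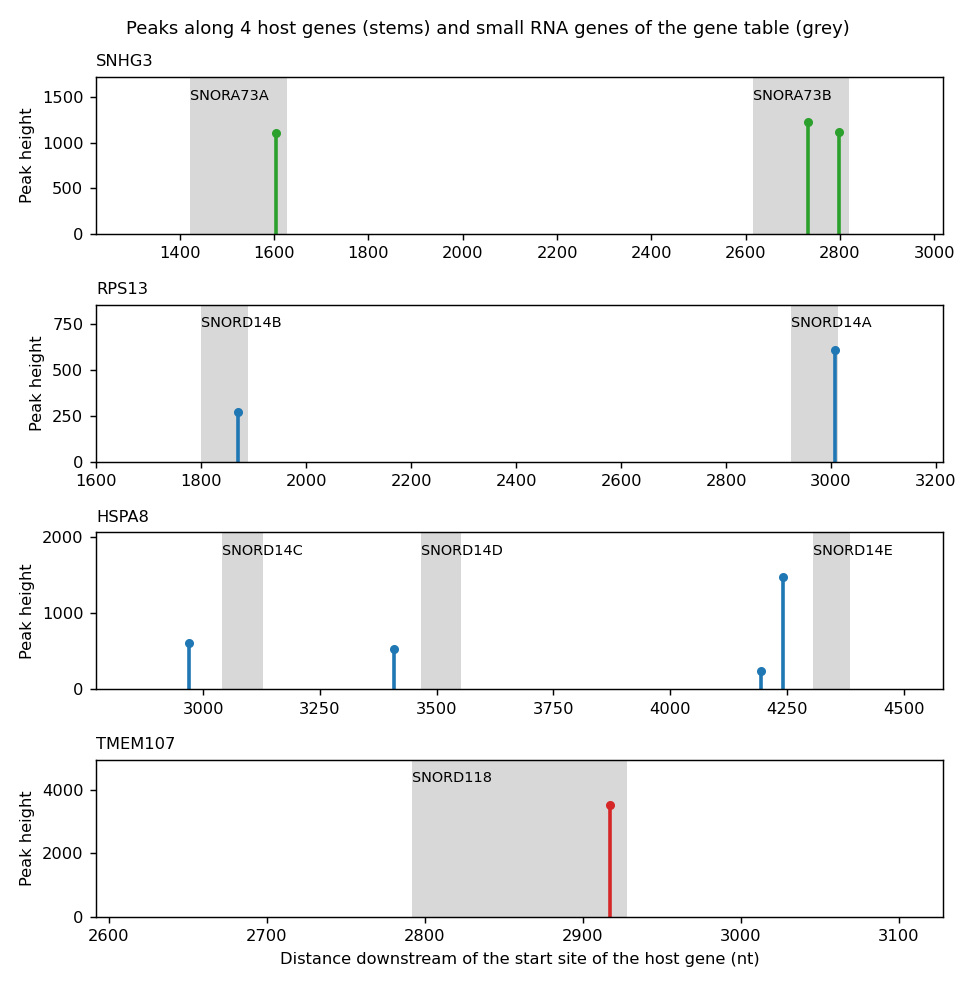
Deposited peak height (stems) against the distance in nt downstream of the annotated start site of the host gene, with small RNA genes of the gene table in grey at their distance from the 5' end of that gene. The peaks of SNHG3, RPS13 and TMEM107 fall inside grey windows, whereas those of HSPA8 lie 59 to 111 nt upstream of theirs, with the spacing between the sites kept to within 12 nt for the highest peak of each copy.

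The windows and peaks in the plot of the host genes come from different builds and are measured from start sites that need not be the same base. In HSPA8 the peaks of SNORD14C, SNORD14D and SNORD14E lay 70, 59 and 65 nt before the windows, the highest peak of SNORD14E being the one meant, and its lower peak 111 nt before. The annotation nonetheless names the repeat U14 at each of these peaks. For this reason no base of U8, U14 or U17 is given for any peak, and only distances between peaks are compared.

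No other peak was called in the host genes of these snoRNAs. TMEM107 had 1 peak, HSPA8 4, RCC1 and SNHG3 the same 3, and RPS13 2, all of them in the positions above, so the coding exons of HSPA8 and RPS13 had no peak in the list. This is no measure of contact with these exons. The deposited expected height was 54.0 for TMEM107, 40.9 for SNHG3, 25.3 for HSPA8 and 11.3 for RPS13. These values are above the list's median height of 8, and only that of RCC1 (6.18) is below it. Whether a peak of ordinary height could be called in these genes was not tested. A peak inside a snoRNA was found in 100 protein-coding genes, the U8, U14 and U17 positions above counted as such. Of these, 48 had no peak elsewhere (48%, exact 95% binomial interval 37.9 to 58.2), and 52 also had a peak outside. Beside this, 30.8% of all protein-coding genes had a called peak outside snoRNAs, a background that includes genes not expressed in these cells. Apart from the members, a peak in a snoRNA whose start site was not the nearest was counted as outside. The split into 48 and 52 is uncertain for this reason. TMEM107, HSPA8, RCC1 and RPS13 are among the 48. The rule takes every peak called in TMEM107, HSPA8 or RCC1 as a member. Those of HSPA8, RCC1 and RPS13 all carry the repeat name U14 or U17. The TMEM107 peak carries none and counts as inside by the rule alone, so its place among the 48 was fixed by the rule.

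The positions named U3 and U13 were of another kind. The 6 named U3 lay in introns of VPS13B (height 26, intron 19 of 61), DCBLD2 (22, intron 2 of 15), NUP210L (5, intron 35 of 37), BTNL9 (4, intron 1 of 10), PLCD4 (4, intron 4 of 15) and TEX14 (3, intron 2 of 32). The single U13 position had a height of 27 and was listed in both ASB3 and GPR75-ASB3, in intron 1 of 9. On hg19 the higher of them stood at 54066479 to 54066500 of chromosome 2 (U13, minus strand), 100305246 to 100305262 of chromosome 8 (VPS13B, plus strand) and 98591007 to 98591024 of chromosome 3 (DCBLD2, minus strand). The 7 positions are scattered over chromosomes 1, 2, 3, 5, 8 and 17, and 4 of them were at or below a height of 5. The copies of U13 and in VPS13B and DCBLD2 were higher than 93.1%, 92.7% and 90.6% of the list. The U3 genes themselves (SNORD3A, SNORD3B-1, SNORD3B-2, SNORD3C and SNORD3D) had no called peak, and neither did SNORD13, the gene of U13. The genes of U8, U14 and U17 had no entry under their own names either, although their hosts did: of the 14 genes of U3, U8, U13, U14 and U17, 0 appeared as a called gene or as the nearest start site. The absence of the U3 genes from the list is thus no measure of U3 itself, whose copies are alike and whose gene models may not have been used in the calling.

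Other copies of small nuclear RNAs in the list were also mostly lower than the peaks of U8, RMRP, U14 and U17. The 15 copies of U1, U2, U4, U5 and U6, spliceosomal RNAs with no part in rRNA cleavage, had a median height of 15 (quartiles 7 and 37.5, lowest 5), beside a median of 5 (quartiles 4 and 24) in the 7 copies of U3 and U13. The whole list had a median of 8 (quartiles 6 and 12). Of the 15 copies, 2, both of U2, exceeded the 99th percentile (13.3%, beside 1% of the list), and the highest reached 894. Some of the genes that hold a U3 or U13 copy had further low peaks: DCBLD2 had 4 others with heights of 6, 8, 8 and 12, ASB3 had 3 of 5, 6 and 6, and VPS13B had 1 of 6. In each of these 3 genes the copy had the highest peak. NUP210L, BTNL9, PLCD4 and TEX14 had no other peak.

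Among small RNAs, U8, RMRP, U14 and U17 stood toward the upper end. The 144 positions inside other box C/D snoRNAs had a median height of 128 (quartiles 59 and 271.5, highest 3169), and the 105 inside other box H/ACA snoRNAs had a median of 81 (quartiles 30 and 150, highest 812). The U8 peak was higher than all 144 and all 105. The RMRP peak was higher than 142 of the box C/D positions. Each of the 3 U17 peaks was higher than all 105 positions in other box H/ACA snoRNAs. The 6 U14 peaks were higher than 98 to 141 of the 144 box C/D positions, so the lowest 2 (243 and 270) lay below the upper quartile of that class. At or above the 99th percentile of the list stood 41.0% of the other box C/D positions and 17.1% of the other box H/ACA positions. Since the list gives no replicate values, these ranks are a description and no test was made.

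**Figure D3:**
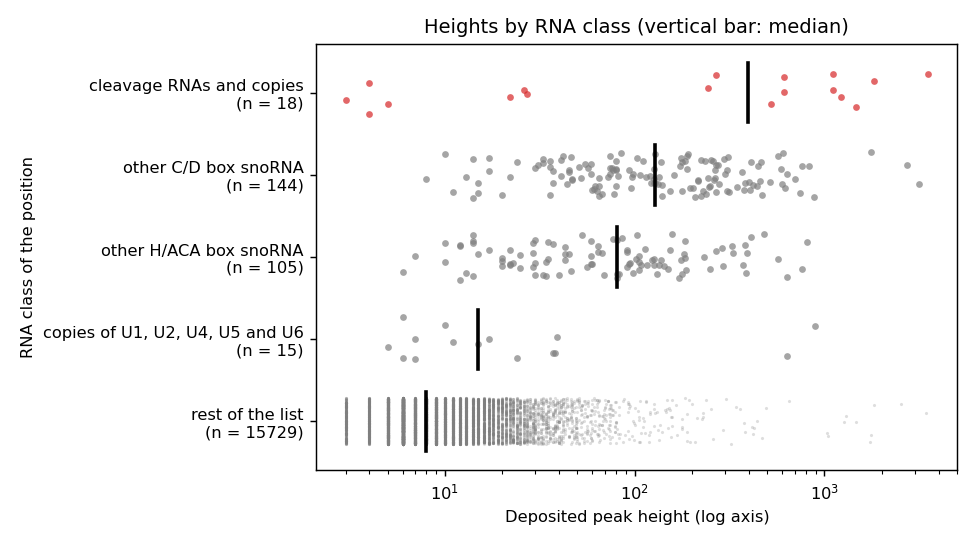
Deposited peak height (log axis) by RNA class, 1 point per position, with the median as a vertical bar. The cleavage RNAs and their copies split into points of 243 and more and points of 27 and less, around medians of 128 and 81 in other box C/D and H/ACA snoRNAs, while the rest of the list has a median of 8.

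The high peaks were also narrow. Of the 11 positions in U8, RMRP, U14 and U17, 9 were 1 nt wide and 2 were 2 nt wide, whereas the 7 copies of U3 and U13 were 17 to 25 nt wide. In the list 8% of positions were 1 nt wide. Width moved with height throughout the list: the median was 17 nt for heights of 3 to 10, 5 nt for heights of 11 to 100 and 1 nt for heights over 100, where 53.6% were 1 nt wide. The narrow peaks of the cleavage RNAs therefore cannot be told apart from their height.

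The deposited expected height set the members apart in another order than the height itself. Each entry carries an expected height, and all 3056 genes with 2 or more entries had a single value, so it belongs to the gene. RMRP, a short gene, had an expected height of 584, and its peak exceeded it 3.13 times. The U8 peak exceeded that of TMEM107 (54.0) 65.3 times. The U14 peaks exceeded that of HSPA8 (25.3) between 9.62 and 58.3 times and that of RPS13 (11.3) 23.8 and 53.9 times. The same 3 U17 peaks were 27.0 to 30 times the expected height of SNHG3 (40.9), but 179 to 199 times that of RCC1 (6.18). Both genes hold the same peaks, and RCC1 is listed at 32947 nt against 4950 nt for SNHG3. The copies of U3 and U13 had expected heights of 0 to 0.07, which are deposited to 2 decimals, so no single ratio is given for them. Over the 15 positions with an expected height above 0, the median ratio was 65.3 with the U17 peaks set against RCC1 and 30 with them set against SNHG3. Both medians include 4 of these copies, whose ratios rest on rounded values and are higher than those of all the other positions. The copies therefore raise both medians, and no difference from other classes is read from them. The median ratio was 92.3 over the list and 23.7 over other box C/D snoRNAs.

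The deposited p-value did not order the members by height. The 4 HSPA8 peaks shared a p of 5.7e-09 although their heights ran from 243 to 1472, and the U8 peak had 1.3e-08. The smallest p that the list holds, 1e-100, was given to 3 member entries only, all of them copies. These were the U13 copy under GPR75-ASB3 (height 27) and the U3 copies in VPS13B (26) and DCBLD2 (22). The same U13 position had a p of 9.06e-09 under ASB3. Of the 54 entries of the whole list with a height over 1000, 16 were at 1e-100. These p-values are the authors' own, and no test was added to them.

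**Figure D4:**
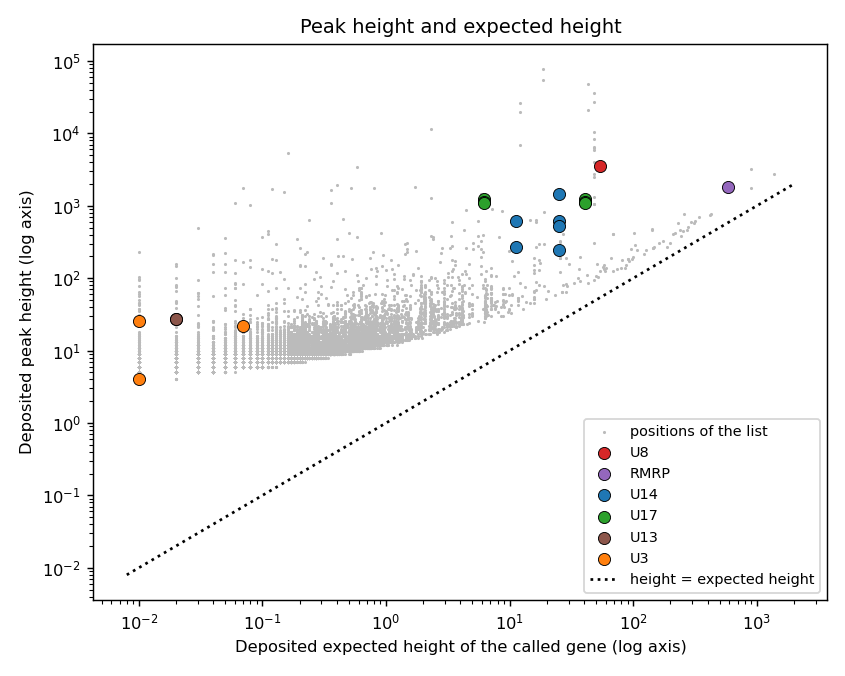
Deposited peak height against the deposited expected height of the called gene (both on log axes), with the list in grey, member entries coloured by RNA, and a dotted line where both are equal. Entries with an expected height of 0 are not drawn, and the U17 peaks appear under both RCC1 (6.18) and SNHG3 (40.9), while RMRP is the member nearest the line, at 3.13 times its expected height of 584.

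Other snoRNAs that are known for a part in rRNA processing also had peaks. SNORD22 (U22), a box C/D snoRNA of SNHG1 needed for the small-subunit rRNA, had a peak of height 466 at position 62620470 of chromosome 11, at nt 38 of 126. SNORA62 (E2), a box H/ACA snoRNA in RPSA, had one of 571 at position 39452673 of chromosome 3, at nt 129 of 154. SNORA63 (E3), a box H/ACA snoRNA in EIF4A2, had one of 812 at position 186505197 of chromosome 3, at nt 110 of 135. Both box H/ACA peaks lay 25 nt from the 3' end, close to the 29 nt of RMRP, whereas the SNORD22 peak lay 88 nt from it. As for RMRP, these places hold only if the start sites of both builds are the same base. The median distance from the 3' end was 26 nt in other box C/D snoRNAs (quartiles 21 and 34, 144 positions) and 29 nt in other box H/ACA snoRNAs (quartiles 18 and 98, 105 positions), classes that include these 3. All 3 peaks were lower than U8, RMRP, the U17 peaks and the highest U14 peak (1472). SNORA63 was higher than every other U14 peak (612 and below), and all 3 were higher than the lowest U14 peaks (270 and 243).

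About as many of the genes of proteins that work with these RNAs had a peak as had none. Of 56 genes of the particles, 27 had a called peak (48.2%, exact 95% binomial interval 34.7 to 62.0), beside 31.0% of all protein-coding genes, a background that includes genes not expressed in these cells. With snoRNA positions left out, 25 of the 56 had one (44.6%, interval 31.3 to 58.5), beside 30.8% of protein-coding genes. The median of the highest peak outside snoRNAs was 8 in these genes and 7 in all protein-coding genes with such a peak. Among the 56 genes the highest peaks counted as outside snoRNAs were in WDR43 (111), NOP58 (42) and DKC1 (30). A peak counts as outside when no snoRNA start site is the nearest. Only 250 of the 1199 snoRNA genes of the gene table were called or nearest in the list. Whether these peaks lie in snoRNAs that the annotation did not use was not tested.

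All 5 genes of the box C/D core proteins and the U3 protein RRP9 had a peak. NOP58 (230, in SNORD11) and NOP56 (126, in SNORD110) led through snoRNAs in their introns, and FBL, the rRNA methyltransferase fibrillarin, had 11. Of the 4 box H/ACA core genes, 3 had one: DKC1, the pseudouridine synthase (53, in SNORA56), NHP2 (11) and GAR1 (6). Of the 36 genes of the U3 particle and small-subunit processome, the complex that carries out the early cuts, 18 had one, led by WDR43 (375, in SNORD92), NOL11 (29, in SNORA38B) and PDCD11 (13). Of 12 genes of RNase MRP and RNase P, with RPPH1 counted among them, 1 had one, RPP38 with a height of 6. The exact binomial interval of this share (0.211 to 38.5%) includes the 31.0% of all protein-coding genes with a called peak. That of the box H/ACA genes (19.4 to 99.4%) does too. The intervals of the box C/D group (47.8 to 100%) and the processome genes (32.9 to 67.1%) lie above 31.0%. This background includes genes not expressed in these cells. The highest peak outside snoRNAs had a median of 7 over all protein-coding genes with such a peak. A height far below that of RMRP is thus not particular to the mRNAs of its proteins.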

How the data were processed

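Peaks were those of the authors' deposited list, 17163 entries at 16095 positions, annotated on hg19 with HOMER's annotatePeaks.pl per the file headers. FastQC 0.10.1 and BWA are listed with hg19 in the submitters' processing notes. For the peak caller, the rule for significance and the handling of duplicate or multiply mapped reads, the sources used here give nothing. Peak height is a signal the authors deposited as whole numbers; expected height and p-value stand in each peak's name. The distance to the nearest start site is the authors' other deposited value, and its sign was turned for peaks on the minus strand. Neither scaling nor depth per sample was given, so depth is unknown.

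Called genes were named by Entrez identifier (6677 of 6695 matched a RefSeq table of GRCh38.p14), which gave names, lengths and spacings only. A peak was inside a snoRNA when at least 1 base lay in it and its start site was the nearest; U8, U14 and U17 positions, for which another start site was the nearest, were counted as inside by the member rule. Positions were counted once. Intervals (Clopper-Pearson) cover counting error only. The parsing was tested on simulated data (Python 3.11.15, pandas 2.3.3, scipy 1.17.1). The members, gene lists and alternatives were chosen with earlier results of these data known. Every member position is named; of protein lists, the 3 highest genes per group, and the neighbours in rank of the U8, RMRP, U14 and U17 peaks. Sequences of these RNAs were not used here.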

Additional observations from a re-analysis of the deposited data

How the results depend on the processing

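The list has 1 value per peak for both samples, so no replicate could be left out, and no paired analysis was possible because there is only 1 group. With peaks at the lower limit of the deposited p-value alone, 3 positions remained, with a summed height of 75, 0.0471% of the height, a median height of 26 and 0 at or above the 99th percentile. With called genes alone there were 9 positions, with a summed height of 11662 (1.78%) and a median of 1115. With repeat names alone the sum was 7275 (1.11%) with a median of 256.5, and without the U8 peak, which has neither a repeat name nor its own start site, it was 9105 (1.39%) with a median of 270. The median height as reported was 398, and it was 526 to 568.5 under the other alternatives. Counting every entry gave a sum of 16111 (2.195%), merging peaks up to 50 nt apart gave 12391, and a p-value up to 0.01 gave a share of 1.98%. Against expected height the median ratio was 58.3 with every entry counted and 30 with U17 set against SNHG3, both raised by the copies of U3 and U13. These 2 settings, and leaving out snoRNA peaks for the protein genes, were chosen after seeing the data. Without values per sample or an input library, differences in height between members were not tested against replicate error.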
